A study of Mus musculus with 6 samples.

Results

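The Ube2 genes, which encode most of the E2 ubiquitin-conjugating enzymes, were read in fetal livers of mice with and without Klf1. Members were all genes whose symbol on the array platform starts with Ube2, each read by the brightest probe set that names this gene alone, by its mean over all arrays. This gave 35 of 19937 measured genes. Whole fetal livers of FVB/NJ embryos at embryonic day 13.5, from matings of Klf1 +/- mice, were dissociated, and RNA was hybridised to 1-colour Affymetrix Mouse Gene arrays. The groups were 3 wildtype embryos and 3 Klf1-/- embryos, and the labels name no agent given to either. Klf1, a transcription factor of red cell precursors, binds CACCC boxes. What was altered in the gene and whether the embryos had different mothers is not given in the labels, so a p-value here reflects only how these 6 embryos spread.

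Ubiquitin is a small protein that is attached to other proteins to mark them for destruction or to change what they do. An E1 enzyme activates it, an E2 enzyme carries it, and an E3 ligase brings the E2 to the target; some E2 enzymes carry relatives of ubiquitin such as SUMO, NEDD8 or ISG15 instead. Maturing red cell precursors shed most of their proteins and organelles, and the ubiquitin system, with Ube2o and Ube2h among its erythroid E2 enzymes, takes part in that remodelling.

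Values are log2 of the RMA intensity, and a change is knockout minus wildtype on that scale, with its standard error from limma after ± unless another is named. Called means an adjusted p under 0.05 (Benjamini-Hochberg, over all genes), and n = 3 per genotype throughout. The number of arrays limits the precision. Median intensity per array lay between 104.5 and 109.8, and arrays correlated across genes at 0.995 to 0.997 within a genotype and at 0.985 to 0.988 between genotypes. Klf1 itself was lower on the knockout arrays by 1.46 ± 0.10 (limma adjusted p = 3.72e-06) but stayed above the upper quartile of genes on all of them, with a knockout mean of 9.18. The probe set may check nothing about the protein if it lies outside the altered part. The tissue label was checked against cell markers: 10 of 10 measured erythroid markers and 10 of 11 hepatoblast markers were brighter than the upper quartile on every array, against 0 of 8 neuron markers.

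Promoters are shown for the 4 Ube2 genes with the largest called changes that have an entry in the RefSeq promoter table (GRCm38.p6), because Klf1 binds CACCC-type sequences; Ube2h, Ube2l6 and Ube2c fell and Ube2e1 rose. Each runs 5′ to 3′ from 250 bases before to 50 bases after a start site, and capitals mark every match to CCNCNCCC on either strand, overlapping matches merged. For Ube2h, which has 2 listed starts, the upstream one is printed.
Ube2h (chr6:30304490-30304789, minus strand): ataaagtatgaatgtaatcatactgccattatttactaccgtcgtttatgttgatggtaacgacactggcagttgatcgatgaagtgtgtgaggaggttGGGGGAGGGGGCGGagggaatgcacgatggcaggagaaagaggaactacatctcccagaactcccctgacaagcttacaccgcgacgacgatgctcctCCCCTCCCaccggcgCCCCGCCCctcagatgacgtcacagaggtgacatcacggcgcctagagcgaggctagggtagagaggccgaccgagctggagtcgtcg
Ube2l6 (chr2:84798578-84798877, plus strand): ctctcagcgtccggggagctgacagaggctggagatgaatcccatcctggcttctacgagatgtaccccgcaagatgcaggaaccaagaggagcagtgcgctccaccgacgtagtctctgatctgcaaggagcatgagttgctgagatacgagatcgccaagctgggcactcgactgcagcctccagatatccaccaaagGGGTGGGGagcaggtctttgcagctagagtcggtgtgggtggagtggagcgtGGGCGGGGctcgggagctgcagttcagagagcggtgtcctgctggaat
Ube2c (chr2:164769679-164769978, plus strand): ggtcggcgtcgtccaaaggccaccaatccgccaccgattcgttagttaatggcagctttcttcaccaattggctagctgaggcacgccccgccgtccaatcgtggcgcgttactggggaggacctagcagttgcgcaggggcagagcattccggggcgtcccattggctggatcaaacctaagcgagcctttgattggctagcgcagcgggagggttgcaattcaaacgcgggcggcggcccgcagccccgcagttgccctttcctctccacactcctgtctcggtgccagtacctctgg
Ube2e1 (chr14:18331795-18332094, minus strand): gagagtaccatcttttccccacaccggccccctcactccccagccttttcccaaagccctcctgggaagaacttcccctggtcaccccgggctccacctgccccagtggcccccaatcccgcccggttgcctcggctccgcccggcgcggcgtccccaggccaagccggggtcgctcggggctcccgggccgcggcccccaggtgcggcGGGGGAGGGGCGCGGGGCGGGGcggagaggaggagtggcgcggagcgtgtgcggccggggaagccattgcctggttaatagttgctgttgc
The motif CCNCNCCC occurred 5 times in this Ube2h window, 4 times in that of Ube2e1, 2 times in that of Ube2l6 and 0 times in that of Ube2c. Entries were matched by symbol for 29 of the 35 genes, with 38 promoters in all. Of these, 33 (86.8%) held CCNCNCCC, against 49.5% of the 32851 promoters of the table. The share was 81.8% (9 of 11) for promoters of genes that fell, 4 of 4 for those of genes that rose and 87% (20 of 23) for those of genes not called. These promoters belong to 8, 3 and 18 genes, and some windows of the same gene overlap, so they are not independent. CCACACCC, a form contained in CCNCNCCC, was found in 1 Ube2 promoter, that of the uncalled Ube2dnl2, and in 3.56% of all promoters. Ube2 promoters were rich in G and C, with a median of 67.3% against 52.7% over all promoters; the median was 59.7% for genes that fell and 77.0% for genes that rose. These matches describe letters, not binding.

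The family split by member, and its largest changes were falls. Of the 35 genes, 10 fell, 3 rose and 22 were not called, where 8.26% of all genes were called lower, 10.8% higher and 19.1% in either direction. Ube2h, Ube2e3, Ube2l6 and Ube2o fell most, by 1.02 to 0.71, and Ube2c, Ube2s, Ube2f, Ube2v1, Ube2r2 and Ube2b fell by 0.57 to 0.43. Ube2e1, Ube2q1 and Ube2q2 rose by 0.54, 0.46 and 0.32. The median change of the family was 0.01, beside -0.02 over all genes, with 16 negative and 19 positive changes in the family. In a whole liver, fewer cells of a type and less RNA per cell cannot be told apart.

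**Figure D1:**
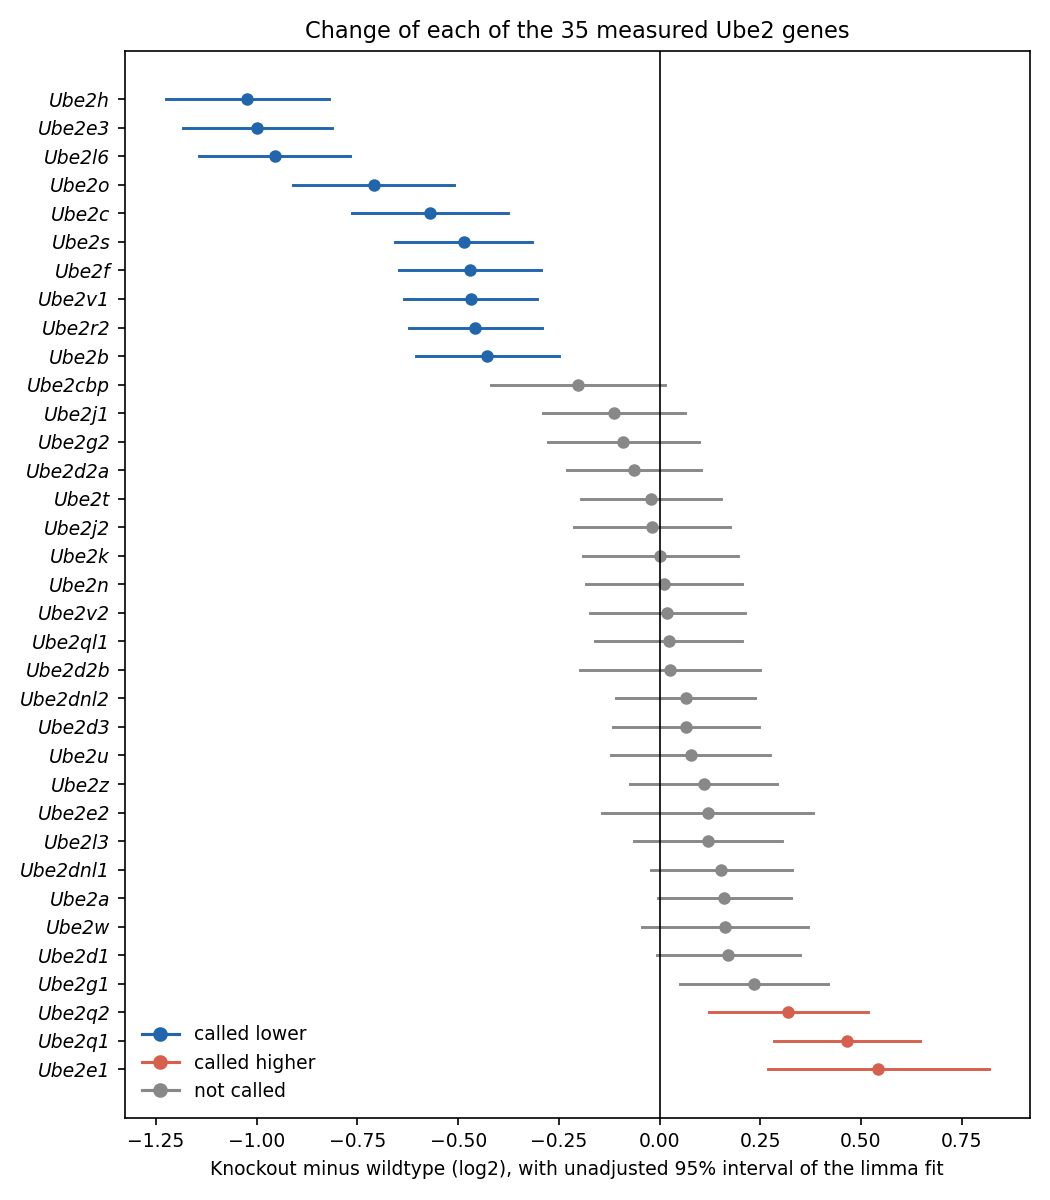
Change of each of the 35 measured Ube2 genes, knockout minus wildtype on the log2 scale, as points with the unadjusted 95% interval of the limma fit. The 10 genes called lower run from -1.02 to -0.43, the 3 called higher from 0.32 to 0.54, and the 22 others lie between -0.20 and 0.23.

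Many Ube2 genes are bright, so the counts were also taken among bright genes alone. On every array 22 of the 35 members lay above the upper quartile of genes, as did 22.2% of all genes. Among those 22 members, 9 fell and 2 rose; among all 4417 such genes 12.2% were called lower and 14.1% higher. In 18 members the genotypes did not overlap, the 13 called and Ube2a, Ube2cbp, Ube2d1, Ube2dnl1 and Ube2g1, where the genotypes did not overlap in 37.5% of all genes. With a change of at least 1.5-fold required as well, 4 members were lower and 0 higher by limma, against 2.46% and 2.75% of all genes. Without knockout replicate 2 or 3, the number of all genes called lower dropped from 1646 to 1038 or 1026, while 10 members were called lower in each case. Of all calls 43.2% were lower; with arrays centred on their 75th percentile this was 55.5%, with 10 members lower and 2 higher.

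The E2 enzymes best known from red cell maturation fell. Ube2h, the E2 partner of the CTLH ligase, read 11.03, 10.75 and 11.00 in wildtype replicates 1, 2 and 3 and 9.86, 9.93 and 9.91 in the knockout replicates. The lowest wildtype liver stood above every knockout liver, and the knockout livers lay close together. Its change was -1.02 ± 0.09 (limma adjusted p = 2.18e-05), a level 2.03-fold lower, and it ranked 295 of 19937 genes by size of change. A second Ube2h probe set gave -1.09 ± 0.10 (adjusted p = 2.68e-05, over all single-gene probe sets).

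Ube2o, a large enzyme that acts as both E2 and E3 and clears ribosomal proteins from reticulocytes, read 11.44, 11.38 and 11.66 in wildtype and 10.74, 10.86 and 10.76 in knockout livers. The groups did not overlap, with wildtype replicate 3 the highest. The change was -0.71 ± 0.09 (limma adjusted p = 3e-04), a 1.64-fold lower level. Both genes stayed called with any 1 array left out, Ube2h at -1.11 to -0.97 and Ube2o at -0.76 to -0.63.

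Among the general ubiquitin E2 enzymes, which start chains with many ligases, the Ube2e genes moved apart. Ube2e3, whose E2 core is joined to an amino-terminal extension, read 10.30, 10.53 and 10.42 in wildtype and 9.44, 9.43 and 9.37 in knockout livers. Knockout livers were lower throughout, with a change of -0.999 ± 0.083 (limma adjusted p = 1.36e-05). Its relative Ube2e1 went the other way, at 8.80, 8.49 and 8.24 in wildtype and 9.05, 9.09 and 9.02 in knockout livers, a rise of 0.54 ± 0.12 (limma adjusted p = 0.0116). The wildtype livers spread widely in Ube2e1, with replicate 1 the highest, and the groups did not overlap; without moderation of the variances the call was lost (adjusted p = 0.138). Ube2e2, the other gene of this subfamily, showed the same wildtype spread, from 7.45 to 7.96, with knockout values of 7.86 to 7.90 inside it, and was not called at 0.12 ± 0.12.

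The Ube2d genes, the most versatile of the general E2 enzymes, were not called. Ube2d3 was the brightest Ube2 probe set and read 13.30 to 13.43 in wildtype and 13.32 to 13.47 in knockout livers, a change of 0.07 ± 0.08. Ube2d1 changed by 0.17 ± 0.08 (limma adjusted p = 0.167), with groups that did not overlap, and Ube2d2a by -0.06 ± 0.08. Ube2l3, which serves ligases that pass ubiquitin through a cysteine of their own, changed by 0.12 ± 0.08, and Ube2w, which labels protein amino termini, by 0.16 ± 0.09. Ube2d2b was under the lower quartile of genes on each array, at 3.72 to 4.08, so it shows little about its RNA.

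**Figure D2:**
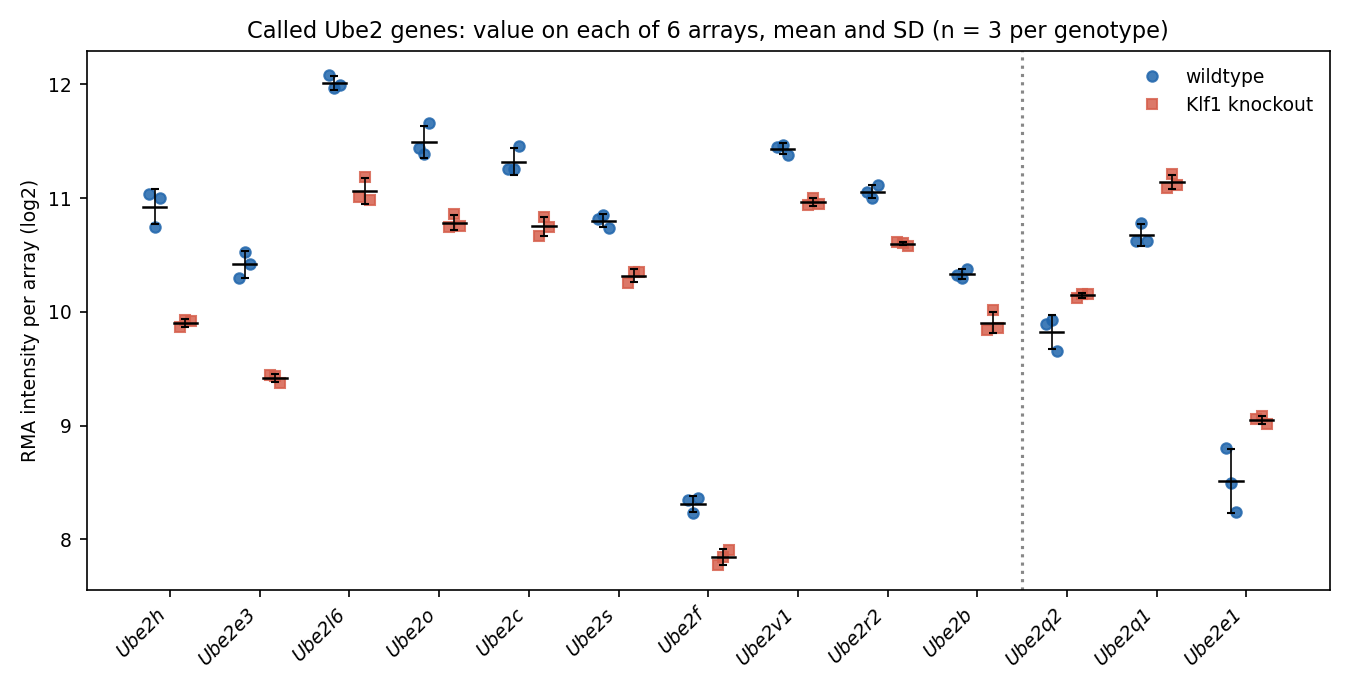
RMA intensity (log2) on each of the 6 arrays for the 13 called Ube2 genes, with the mean as a bar and the SD as whiskers (n = 3 per genotype); genes left of the dotted line fell and those right of it rose. In none of the 13 do the wildtype circles and the knockout squares overlap, and Ube2e1 has the widest wildtype spread, from 8.24 to 8.80.

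The E2 enzymes of the anaphase-promoting complex, the ligase that drives exit from mitosis, both fell. Ube2c, which starts chains on its targets, read 11.25, 11.25 and 11.46 in wildtype and 10.67, 10.84 and 10.75 in knockout livers, a change of -0.57 ± 0.09 (limma adjusted p = 0.0011). Ube2s, which lengthens those chains, read 10.82, 10.85 and 10.74 in wildtype and 10.25, 10.35 and 10.35 in knockout livers, a change of -0.49 ± 0.08 (limma adjusted p = 0.00134). The groups were apart in both genes. A dimmer Ube2s probe set gave -0.37 ± 0.14 and was not called (adjusted p = 0.105), with wildtype replicate 1 at 8.67, below the highest knockout value of 8.83.

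The ligase itself was mixed. Of 17 measured genes of the complex and its regulators, 4 fell and 2 rose (35.3% called, against 19.1% of all genes), with a median change of 0.01. The shares were 23.5% lower and 11.8% higher, beside 8.26% and 10.8% of all genes. On every array 14 of the 17 lay above the upper quartile, and of all genes that bright 12.2% were called lower and 14.1% higher. Without knockout replicate 2 the list had 1 rise, where rises over all genes dropped from 2163 to 1371. The activator Fzr1 fell by 0.95 ± 0.08 (limma adjusted p = 1.39e-05), from 10.72, 10.78 and 10.91 to 9.86, 9.88 and 9.84. The inhibitor Fbxo5 fell by 0.74 ± 0.08 and the subunit Anapc5 by 0.38 ± 0.07, while the subunit Anapc4 rose by 0.42 ± 0.08. Anapc5 was not called, at -0.11, with the mean of its probe sets in place of the brightest.

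Ube2l6 and Ube2f, E2 enzymes for relatives of ubiquitin, fell, and Ube2z, listed with them, was not called. Ube2l6, the E2 for the interferon-induced modifier ISG15, read 12.08, 11.96 and 11.996 in wildtype and 11.01, 11.19 and 10.98 in knockout livers. The step of -0.95 ± 0.08 (limma adjusted p = 2.09e-05) was several times the SD within either group, 0.06 in wildtype and 0.11 in knockout. Uba7, the E1 of the same modifier, changed by -0.01 ± 0.10 and was named for this role after its value was seen. Ube2f, an E2 for NEDD8 that serves cullin 5, read 8.34, 8.23 and 8.36 in wildtype and 7.77, 7.84 and 7.91 in knockout livers, a change of -0.47 ± 0.08 (limma adjusted p = 0.00203). Ube2z, which takes its ubiquitin from the E1 enzyme Uba6, changed by 0.11 ± 0.08. Ube2m, the other E2 for NEDD8, was not analysed here.

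Among the chain-building enzymes Ube2v1 and Ube2r2 fell, and their partners or relatives were not called. Ube2v1, an inactive E2 relative that pairs with Ube2n to build K63-linked chains, read 11.45, 11.47 and 11.38 in wildtype and 10.94, 11.00 and 10.95 in knockout livers. All knockout values were lower, with a change of -0.47 ± 0.07 (limma adjusted p = 0.00137). The catalytic partner Ube2n read 10.37, 10.22 and 10.16 against 10.28, 10.35 and 10.16, a change of 0.01 ± 0.09, and the alternative partner Ube2v2 changed by 0.02 ± 0.09. Their values overlapped throughout. Ube2r2, which builds K48-linked chains with cullin ligases, read 11.05, 11.00 and 11.11 in wildtype and 10.61, 10.61 and 10.58 in knockout livers, a change of -0.46 ± 0.07 (limma adjusted p = 0.00161). The other K48-chain and membrane E2 enzymes Ube2k, Ube2g2, Ube2j1 and Ube2j2, the last 3 of which act in disposal of proteins from the endoplasmic reticulum, changed by 0.00, -0.09, -0.11 and -0.02, with overlapping groups. Ube2g1 changed by 0.23 ± 0.08 with groups apart (limma adjusted p = 0.0742) and was called with a trend in the variance model (adjusted p = 0.0438) or after leaving out genes below the median level (adjusted p = 0.036).

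In the DNA repair and histone group, Ube2b fell. Ube2b, a RAD6 enzyme that marks histone H2B and the replication clamp, read 10.32, 10.30 and 10.38 in wildtype and 9.84, 10.01 and 9.86 in knockout livers, a change of -0.43 ± 0.08 (limma adjusted p = 0.0038). Its near twin Ube2a, the X-linked RAD6 gene, read 8.58, 8.56 and 8.55 in wildtype and 8.65, 8.75 and 8.77 in knockout livers, so it lay slightly higher in every knockout liver, at 0.16 ± 0.08, but was not called (limma adjusted p = 0.162). Ube2t, the E2 of the Fanconi anemia pathway, changed by -0.02 ± 0.08 with overlapping values.

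Both Ube2q genes, less studied E2 enzymes with a long amino-terminal part, rose. Ube2q1 read 10.62, 10.78 and 10.62 in wildtype and 11.09, 11.21 and 11.12 in knockout livers, a change of 0.46 ± 0.08 (limma adjusted p = 0.00258). Ube2q2 read 9.89, 9.93 and 9.66 in wildtype and 10.12, 10.16 and 10.16 in knockout livers, a change of 0.32 ± 0.09 (limma adjusted p = 0.0298), with groups apart. This call was lost without wildtype replicate 3 (0.24, adjusted p = 0.0695), without knockout replicate 1, 2 or 3 (0.33, 0.31 and 0.31), after 75th percentile centring (0.27, adjusted p = 0.0745) and without moderation (adjusted p = 0.111). A second Ube2q2 probe set rose by 0.48 ± 0.13 (adjusted p = 0.0277). Ube2ql1, related by name, changed by 0.02 ± 0.08. Ube2cbp carries the prefix but encodes a binding partner of Ube2c rather than an E2; it changed by -0.20 ± 0.10. Ube2u, Ube2dnl1 and Ube2dnl2 were likewise under the lower quartile on all 6 arrays and changed by 0.08, 0.15 and 0.06.

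The 22 genes not called were measured about as tightly as the others. Standard errors over the family ran from 0.07 to 0.12. Each of the 22 unadjusted 95% intervals lay inside a 1.5-fold change either way, the outermost bounds being -0.42 for Ube2cbp and 0.42 for Ube2g1, and 15 lay inside 1.25-fold. The intervals of these genes therefore leave room for small shifts, and that of Ube2g1, 0.05 to 0.42, excludes 0. Changes the size of those of Ube2h or Ube2l6 lie outside their intervals. For Ube2d2b, Ube2u, Ube2dnl1 and Ube2dnl2, under the lower quartile on every array, this holds for the probe set signal only. At that level a narrow interval does not bound a change of the RNA.

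Close relatives were set against each other within each array, which removes a constant factor of the array but not a scaling that varies with brightness. In 9 of 12 pairs the within-array difference did not overlap between genotypes, as in 65.2% of all 595 pairs of Ube2 genes and 40.2% of all pairs of genes on the arrays. Each of these 9 reached exact permutation p = 0.1 (2-sided), the smallest that 3 against 3 arrays allow, and 0.133 adjusted over the 12 pairs. The difference of Ube2e1 less Ube2e3 went from -1.50, -2.04 and -2.18 in wildtype to -0.39, -0.35 and -0.36 in knockout livers, a shift of 1.54 ± 0.21, where ± for a pair is the standard error of the difference of the 2 group means, from the SD within each group. Ube2l3 less Ube2l6 shifted by 1.08 ± 0.09, Ube2e2 less Ube2e3 by 1.12 ± 0.19 and Ube2a less Ube2b by 0.59 ± 0.06, while Ube2v1 less Ube2v2 shifted by -0.49 ± 0.08. The other 4 of these pairs, Ube2e1 less Ube2e2, Ube2g1 less Ube2g2, Ube2d1 less Ube2d2a and Ube2d2a less Ube2d3, shifted by 0.42, 0.32, 0.23 and -0.13. Pairs that overlapped were Ube2d1 with Ube2d3, Ube2j1 with Ube2j2 and Ube2q1 with Ube2q2, at 0.10 ± 0.05, -0.10 ± 0.09 and 0.15 ± 0.07.

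**Figure D3:**
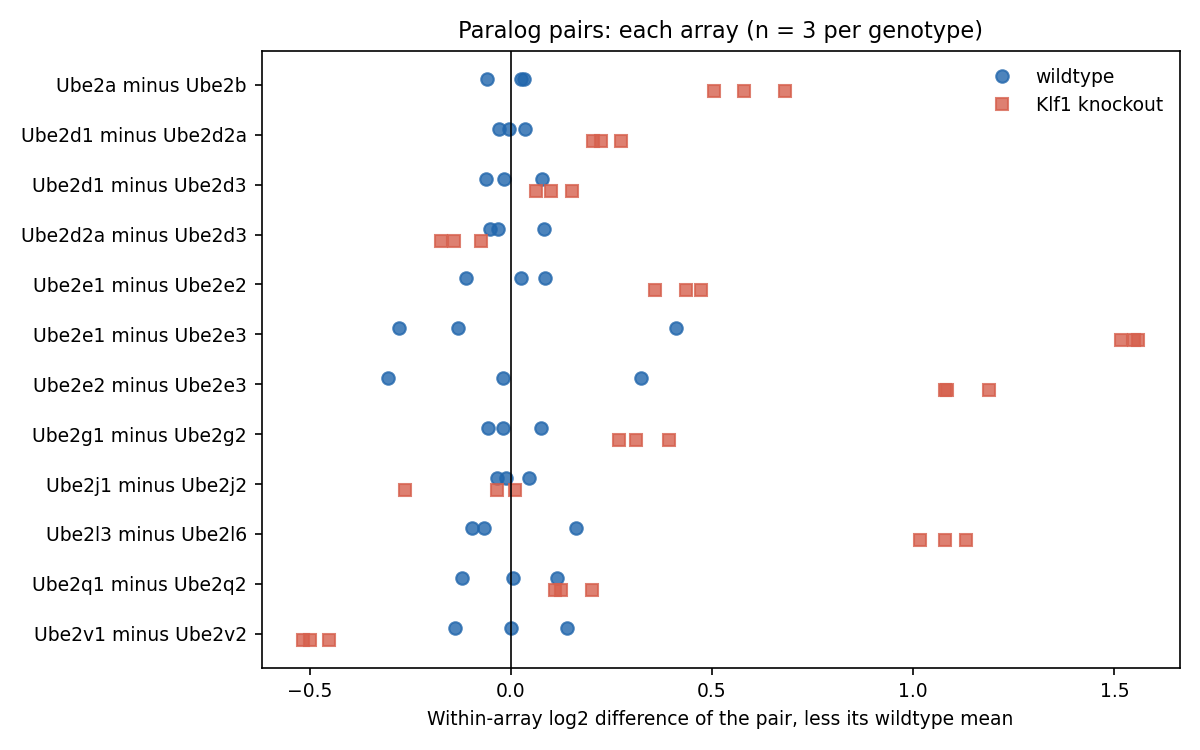
Within-array log2 difference of 12 pairs of related Ube2 genes on each array, less the mean of the wildtype arrays for that pair (n = 3 per genotype). Knockout squares lie apart from wildtype circles in 9 of the 12 pairs (65.2% of all pairs of Ube2 genes), farthest for Ube2e1 minus Ube2e3, with a shift of 1.54.

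For 9 of the 35 genes the annotation lists more than 1 single-gene probe set, 46 probe sets in all for the family. No pair of probe sets for a gene was called in opposite directions. The dimmer sets of Ube2v1 gave -0.30 ± 0.14 and -0.55 ± 0.18, neither called (adjusted p = 0.173 and 0.0593). The further sets of Ube2d3 (0.12 and 0.11), Ube2d2a (-0.06), Ube2l3 (0.21), Ube2v2 (0.04) and Ube2n (-0.07) were not called either, as their brightest sets were not. Several Ube2 genes have near-identical copies elsewhere, and 4 probe sets name a Ube2 gene together with another gene; where a probe set lies in the genome is not stated in the sources used here, so signal from such copies may be mixed in. Of those 4, the set shared by Gm5434 and Ube2f was lower in the knockout by 0.47 (adjusted p = 0.0102 over all probe sets), and the 3 others changed by 0.09 each without a call.

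**Figure D4:**
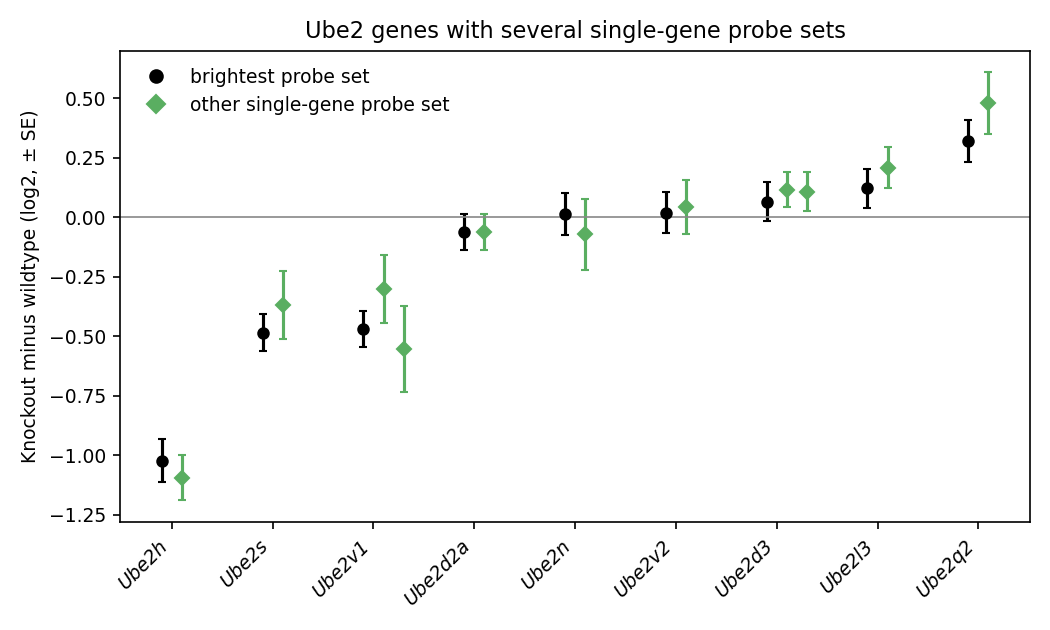
Change of every single-gene probe set, knockout minus wildtype (log2, ± SE of the limma fit), for the 9 Ube2 genes with more than 1; circles are the brightest set of each gene and diamonds the others. Both Ube2h sets lie near -1.0, at -1.02 and -1.09, and only for Ube2n do the signs differ, at 0.01 and -0.07.

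The step before the E2 enzymes was measured in part, through 8 of 11 listed E1 genes: Atg7, Mocs3, Nae1, Sae1, Uba1y, Uba3, Uba6 and Uba7. Of these 8, 0 were called by limma, 1 had an unadjusted p under 0.05 and 0 were called without moderation, against 19.1%, 33.3% and 10.4% of all genes. So few genes cannot be set apart from these shares. Uba1, an E1 for ubiquitin, is not among the 8, so these counts do not cover it. The gene with an unadjusted p under 0.05 was Atg7, the E1 of autophagy, at 0.24 ± 0.08 (adjusted p = 0.054), which was called in 4 alternatives, both filters on dim genes, the variance trend and array weights, at adjusted p = 0.0229 to 0.0443. Uba3, of the NEDD8 E1, changed by 0.15 ± 0.10. Of 13 listed genes for ubiquitin and its relatives, the 7 measured (Fau, Nedd8, Sumo2, Sumo3, Ubd, Ufm1 and Urm1) all encode relatives, so nothing is shown here about ubiquitin itself. Among these 7, 0 were called by limma, 0 had an unadjusted p under 0.05 and 0 were called without moderation; Sumo3 and Ufm1 had the smallest p, at 0.17 ± 0.09 and 0.15 ± 0.10.

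E2 enzymes and E2-like folds outside the Ube2 names went up where they moved. Of 8 such genes 4 rose and 0 fell, with a median of 0.25, where 10.8% of all genes were called higher. Atg10 and Atg3, the E2-like enzymes of autophagy, rose by 0.56 ± 0.15 and 0.39 ± 0.12 (limma adjusted p = 0.0291 and 0.0372), and the inactive E2 folds Uevld and Aktip rose by 0.44 ± 0.08 and 0.30 ± 0.08 (adjusted p = 0.00226 and 0.0173). Only the Uevld call held with any 1 array left out, and that of Atg3 was also lost with arrays centred on the 75th percentile (0.34, adjusted p = 0.078) or on housekeeping deviations (adjusted p = 0.0534). The Atg10 call was lost with quantile normalization (adjusted p = 0.0533), and without moderation both were lost (adjusted p = 0.212 for Atg10 and 0.193 for Atg3), which left 2 rises. The count of rises was 1 without wildtype replicate 2, knockout replicate 2 or knockout replicate 3, and 2 without wildtype replicate 3. Over all genes the rises dropped from 2163 to 1634, 1371, 1388 and 1770 in these 4 cases.

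The CTLH ligase, the partner of Ube2h, had 4 of 11 measured genes lower and 1 higher (45.5% called, against 19.1% of all genes), with a median of 0.04. Ranbp10, one of its scaffold subunits, read 11.63, 11.62 and 11.73 in wildtype and 10.004, 10.22 and 10.15 in knockout livers, a change of -1.54 ± 0.08 (limma adjusted p = 6.84e-07). Wdr26, another scaffold subunit, fell by 0.84 ± 0.07 and the ring subunit gene Rmnd5a by 0.45 ± 0.09, while its relative Rmnd5b rose by 0.58 ± 0.10. Rmnd5a and Rmnd5b were not called without moderation (adjusted p = 0.0724 and 0.0576). The ring subunit Maea, named for its role after its value was seen, changed by 0.06 ± 0.08. All 11 genes of this list lay above the upper quartile on every array. Of all genes that bright 12.2% were called lower and 14.1% higher.

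In the core of the cullin ligases, which work with Ube2r2 and Ube2f, 1 of 17 genes fell and 3 rose, with a median of 0.12. The shares, 5.88% lower and 17.6% higher, were near the 8.26% and 10.8% of all genes. Cul4b, a scaffold, rose by 0.47 ± 0.10, its relative Cul4a by 0.25 ± 0.08 and the exchange factor Cand1 by 0.37 ± 0.09, while Dcun1d1, which promotes NEDD8 attachment to cullins, fell by 0.42 ± 0.08. The Cul4a call was lost without any array but wildtype replicate 3, at 0.22 to 0.26, and that of Cand1 without knockout replicate 1 or 2, at 0.35 each; both were lost with 75th percentile centring (adjusted p = 0.0921 and 0.058), and that of Cul4a with centring on housekeeping deviations (adjusted p = 0.116). Without moderation the calls of Cul4b and Cand1 were lost (adjusted p = 0.105 and 0.11). The list had 1 rise without knockout replicate 1 or 2, and 2 falls without knockout replicate 3. Over all genes the rises dropped from 2163 to 1919 and 1371 without knockout replicate 1 and 2. The falls over all genes dropped from 1646 to 1026 without knockout replicate 3.

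Other ligases showed the widest range, with 10 of 51 lower and 9 higher (37.3% called, against 19.1% of all genes) and a median of 0.08. The shares were 19.6% lower and 17.6% higher, beside 8.26% and 10.8% of all genes. On every array 36 of the 51 lay above the upper quartile, and of all genes that bright 12.2% were called lower and 14.1% higher. Hecw1, a HECT-type ligase, rose by 3.13 ± 0.11 (limma adjusted p = 2.02e-08). Rnf123 fell by 1.54 ± 0.09, Rnf11 by 1.48 ± 0.08 and Trim58, a ligase of late erythroblasts, by 1.18 ± 0.09. The falls numbered 6 without knockout replicate 1, and the rises 5 without knockout replicate 1 or 2 and 3 without knockout replicate 3. Over all genes the falls went from 1646 to 1643 without knockout replicate 1. The rises over all genes went from 2163 to 1919, 1371 and 1388 without knockout replicate 1, 2 and 3. Deubiquitinating and deSUMOylating enzymes, which remove the marks, had 6 of 64 lower and 9 higher (23.4% called), with a median of 0.10. The shares, 9.38% lower and 14.1% higher, were near the 8.26% and 10.8% of all genes. In this list 5 were higher without knockout replicate 2 or 3, where rises over all genes also dropped, to 1371 and 1388. Usp11 rose by 1.01 ± 0.08 and Usp30, a mitochondrial enzyme, by 0.64 ± 0.07, while Usp7 fell by 0.93 ± 0.07 and Usp32 by 0.71 ± 0.07.

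**Figure D5:**
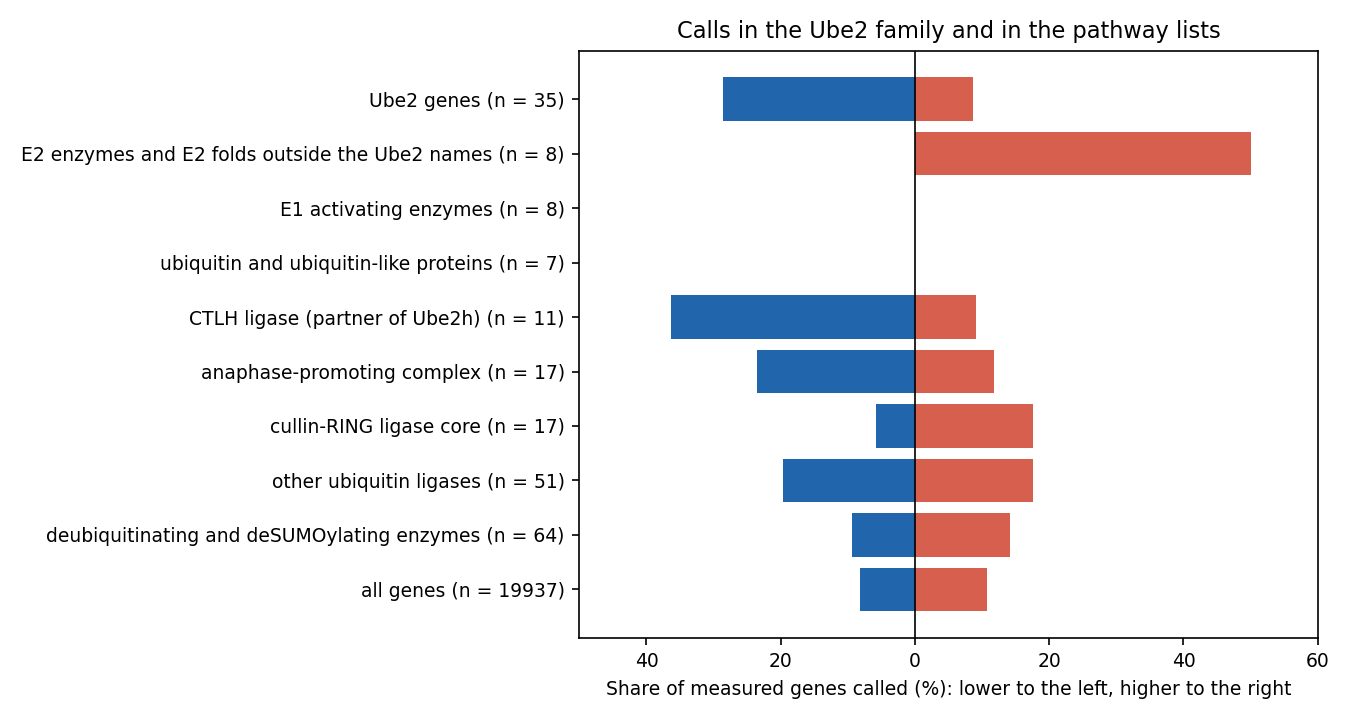
Share of measured genes called lower (blue, left) and higher (red, right) in the Ube2 family, in 8 lists of the ubiquitin system and over all genes, in percent of the measured genes given as n. The Ube2 family has 28.6% lower and 8.57% higher, all genes 8.26% and 10.8%.

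Markers of blood cell types moved with genotype, and their part in the Ube2 changes was not tested. Of 10 measured erythroid markers 9 fell, with a median of -1.13, and their summed intensity was 57909 to 65113 in wildtype and 26718 to 29086 in knockout livers. All 9 megakaryocyte markers rose, with sums of 19343 to 20472 and 28641 to 36817, and 6 of 12 granulocyte markers rose, with sums of 6165 to 6946 and 7996 to 10116. Of 11 macrophage markers 6 fell, with sums of 4604 to 5665 and 3518 to 3920. Hepatoblast markers had 3 of 11 lower, with sums of 51949 to 61820 and 49640 to 53377. Of all genes 8.26% were called lower and 10.8% higher. Among genes above the upper quartile on every array these shares were 12.2% and 14.1%. Without moderation 8 erythroid, 2 macrophage and 0 hepatoblast markers were called lower, and 3 megakaryocyte and 0 granulocyte markers higher. Over all genes this setting also cut the calls, from 1646 to 955 lower and from 2163 to 1128 higher. The share of all genes called in either direction was then 10.4%, against 19.1% with moderation. The neuron markers still summed to 461 to 469 in wildtype and 408 to 442 in knockout livers. A sum above 0 therefore does not show that a cell type was present.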

How the data were processed

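Probe set intensities were deposited by the authors; the submitters' processing notes name RMA and Affymetrix Power Tools 1.8.6. RMA makes array distributions alike and hides any difference in total RNA. The authors' genome build is not given in the sources used here. log2 of the deposited intensity was taken, with no further normalization or filter. Of 34760 probe sets, 21640 name 1 gene, 1321 several and 11799 none here; 0 symbols changed against the GRCm38.p6 gene table. Genotypes were compared by lmFit and eBayes of limma 3.58.1 (R 4.3.3), 2-sided, over all 19937 genes. Named were every Ube2 gene, Klf1 and, per list, up to 4 called genes with the largest change or the 2 with the smallest p. The members, lists and pairs were chosen with earlier results of these data known. Alternatives covered scaling, filters, probe sets, variance models, array weights, a replicate block, thresholds and leaving out each array.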

Additional observations from a re-analysis of the deposited data

How the results depend on the processing

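The 10 genes called lower were the same in every alternative at the 0.05 threshold without a fold minimum, including each array left out. With 1.5-fold required, 4 were lower and 0 higher. The 3 rises became 1 without moderation and 1 at adjusted p under 0.01, and 2 to 3 with an array left out. All genes called numbered 3809, and 2083 without moderation, 1995 at 0.01, 1039 with 1.5-fold, and 2409 (without knockout replicate 2) to 3749 with an array left out. Falls over all genes numbered 1646, and 1039 with centring on housekeeping deviations and 955 without moderation. Pathway genes called numbered 53 of 183 measured (29%, against 19.1% of all genes). They numbered 30 at 0.01, 15 with 1.5-fold, and 35 (without knockout replicate 3) to 51 with an array left out. Of the 183 pathway genes, 133 lay above the upper quartile on every array, and 13.7% of the 183 were called lower and 15.3% higher. Among all genes that bright the shares were near these, at 12.2% and 14.1%.

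The replicate block gave 10 lower and 3 higher Ube2 genes, 3498 genes and 47 pathway genes. Same-numbered arrays correlated in their deviations at -0.16, -0.22 and 0.18, and not every array matched its own number best. With 3 arrays per genotype the deviations of a gene sum to 0, so these correlations depend on each other. They do not settle whether the numbers pair the embryos. Among the named genes, the block ended the call of Cul4a (adjusted p = 0.076).

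Uncalled genes near 0 changed sign. Centring on the 75th percentile shifts every change by -0.047, and with it Ube2k, Ube2n, Ube2v2, Ube2ql1 and Ube2d2b read -0.045, -0.035, -0.028, -0.024 and -0.021. With array weights Ube2j2, Ube2k and Ube2n read 0.018, -0.0073 and -0.0040, and with the mean of probe sets Ube2n read -0.030. With an array left out, ranges were -0.053 to 0.024 for Ube2t, -0.068 to 0.048 for Ube2j2, -0.070 to 0.068 for Ube2k, -0.031 to 0.071 for Ube2n, -0.031 to 0.098 for Ube2v2, -0.023 to 0.056 for Ube2ql1, -0.059 to 0.12 for Ube2d2b and -0.030 to 0.22 for Ube2e2. The cause of the other sign changes was not tested. Dim probe sets, such as those of Ube2d2b, Ube2u, Ube2dnl1 and Ube2dnl2, limit what their values show.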
